A study of Mus musculus with 12 samples.

Results

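The genes described here encode enzymes and membrane proteins of the lysosome, and their RNA was followed in mouse extraembryonic endoderm (XEN) cells given BMP4. A list of 41 genes was drawn up by function, and a gene was taken as measured where the array table carries a row of that name. Rows of that name exist for 37 of the 41, and 31 of these passed the detection filter and were tested, among 10598 genes tested in all. XEN cells are stem cells of the primitive endoderm, the lineage that lines the yolk sac, and the line used carries a green fluorescent protein (GFP) reporter driven by Afp, the alpha-fetoprotein gene. All 4 groups are this transgenic line in N2B27 medium, with 3 arrays each: cells given BMP4 and left unsorted, untreated unsorted cells, and the GFP positive and the GFP negative fraction sorted by flow cytometry after BMP4. All groups come from 1 line, so its own features are shared by every array, and how much BMP4 was added, and for how long, is not stated in the labels.

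The lysosome is an acid compartment in which proteases, glycosidases, sulfatases and lipases degrade material delivered by endocytosis and autophagy. Its enzymes are carried from the Golgi on mannose 6-phosphate receptors, its membrane is lined by heavily glycosylated proteins such as LAMP1 and LAMP2, and a proton pump, the V-ATPase, keeps it acid. Many of its genes carry a CACGTG core, part of the CLEAR element that the transcription factor TFEB and its relatives bind. Visceral endoderm of the rodent yolk sac is known for strong endocytosis and for large apical vacuoles with lysosomal function. Each value below is a background-corrected, quantile-normalized log2 signal of 1 probe, the brightest kept probe of its gene, and a difference is in log2 units with its standard error (SE). A gene was called when limma gave a Benjamini-Hochberg adjusted p under 0.05 over all 10598 genes. Whether replicates were separate cultures is not clear from the labels, and the p-values measure only the spread between these arrays, which may be technical. In these bulk samples, fewer cells of a type and less RNA per cell cannot be told apart.

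Median signal was 22.6 to 32.4 on the sorted arrays and 53.4 to 60.9 on the unsorted ones, and 13105 to 13745 probes were detected on the sorted arrays, against 13872 to 14737 on the unsorted. Sorting and the array set therefore cannot be told apart in any comparison of a sorted fraction with unsorted cells. The labelled cell type was checked against 9 endoderm markers that define XEN cells, and all 9, Gata4, Gata6 and Sox17 among them, were detected on all 12 arrays. None of 8 fibroblast markers was detected on any array, and 8 of 11 macrophage markers, Ptprc and Adgre1 among them, were undetected on all 12. The sum of the other 3 macrophage markers (Csf1r, Laptm5 and Cd14), in linear signal, was 134 to 158 after BMP4 and 96.1 to 103 in untreated cells, and it was 320.0 to 355 in GFP positive and 307 to 326 in GFP negative cells. The genes in this sum moved in opposite directions. Csf1r averaged 8.07 in GFP positive and 7.70 in GFP negative cells, against 5.82 in unsorted BMP4 cells. Cd14 averaged 4.86 and 5.06 in the fractions, where it was undetected, against 6.10 in unsorted BMP4 cells. Csf1r and Cd14 were undetected on the untreated arrays, and Laptm5 was detected in GFP negative cells alone. The part of these markers in the results below was not tested.

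Many of these genes share a promoter motif, which played no part in choosing them. RefSeq promoter windows (build GRCm38.p6, 250 bases before to 50 after the start) were at hand for 27 of the 31 tested genes, and CACGTG, which reads the same on both strands, occurred in 12 of them, or 44.4%. The same letters occurred in 2187 of 27025 genes of the whole promoter table, or 8.09%. That table was not filtered for detection, and without the filter 13 of 36 listed lysosomal genes with a window held CACGTG, or 36.1%. With a T in front, TCACGTG on either strand overlaps the shorter motif. Its shares were 37.0% of the tested lysosomal genes (10 of 27) and 4.29% of the whole table. The bases upstream of the start are printed for genes that show the range, with the motif in capitals. Lamp1 and Mcoln1 are shown for their clusters, Ctsd, Naglu, Glb1, Arsa, Lgmn and Gaa for a single copy in the stretch shown, and Scarb2 and Hexa because they fell strongly and hold no copy in the window.
Lamp1 (chr8:13159081-13159160, plus strand): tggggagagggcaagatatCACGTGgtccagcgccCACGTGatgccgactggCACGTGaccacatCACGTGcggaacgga
Mcoln1 (chr8:3500439-3500518, plus strand): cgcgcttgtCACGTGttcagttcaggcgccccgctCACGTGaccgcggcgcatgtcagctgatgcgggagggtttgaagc
Ctsd (chr7:142387828-142387937, minus strand): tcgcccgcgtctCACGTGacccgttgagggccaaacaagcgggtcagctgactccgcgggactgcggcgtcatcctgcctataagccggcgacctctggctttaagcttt
Naglu (chr11:101070014-101070093, plus strand): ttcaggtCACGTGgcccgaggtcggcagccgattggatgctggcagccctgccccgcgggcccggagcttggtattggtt
Glb1 (chr9:114400998-114401077, plus strand): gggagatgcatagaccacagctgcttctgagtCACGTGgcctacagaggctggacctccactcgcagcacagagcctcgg
Arsa (chr15:89477425-89477504, minus strand): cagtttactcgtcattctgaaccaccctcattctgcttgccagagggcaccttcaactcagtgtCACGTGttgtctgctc
Lgmn (chr12:102439093-102439172, minus strand): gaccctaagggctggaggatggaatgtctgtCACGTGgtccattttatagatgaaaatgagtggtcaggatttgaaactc
Gaa (chr11:119267813-119267962, plus strand): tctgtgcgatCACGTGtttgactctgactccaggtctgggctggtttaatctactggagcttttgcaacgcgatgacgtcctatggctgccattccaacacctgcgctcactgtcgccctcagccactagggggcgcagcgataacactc
Scarb2 (chr5:92505658-92505737, minus strand): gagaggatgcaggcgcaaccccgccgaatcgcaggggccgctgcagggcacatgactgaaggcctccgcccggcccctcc
Hexa (chr9:59539460-59539539, plus strand): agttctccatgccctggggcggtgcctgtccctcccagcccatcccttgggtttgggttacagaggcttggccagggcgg
The 4 copies of Lamp1 begin 61, 45, 28 and 15 bases before the start, and those of Mcoln1 begin 71 and 45 bases before it. Arsa, Glb1, Lgmn and Naglu have theirs 16, 48, 49 and 73 bases before the start, and Gaa 140. Besides the copy shown at 98 bases, Ctsd has one at 245. Cln3, Ctsf, Ctsl and Sgsh also hold the motif. A gene with more than 1 window was counted if any of them held it. Lgmn and Cln3 each have another window, at another annotated start, without a copy. A match describes these letters only and shows no binding.

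Most lysosomal genes were lower after BMP4. Relative to untreated cells, 25 of 31 were lower, or 80.6%, where 28.7% of all genes tested were called lower. Only Lgmn, Ctsz and Galns rose, 3 of 31 or 9.68%, where 30.2% of all genes rose, and Cd63, Mcoln1 and Ctsf did not pass the test. The median difference of the 31 genes was -0.66, against 0.03 for all genes, and it was -0.62 with Sgsh, undetected after BMP4, set at its bound. In 25 of 31 genes every BMP4 array lay below every untreated array, which held for 29.6% of all genes, and 6 fell by at least 1 log2 unit, or 19.4%, against 5.82% of all genes.

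**Figure D1:**
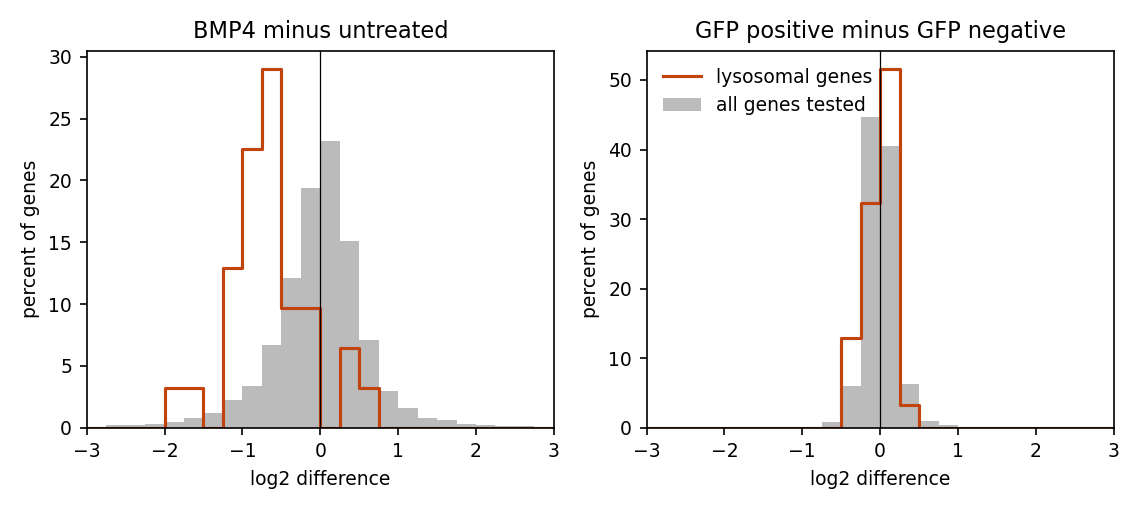
Distribution of log2 differences, as a percent of genes in bins of the log2 difference, for the 31 lysosomal genes (red outline) and all 10598 genes tested (grey). For BMP4 minus untreated the lysosomal genes lie mostly below 0, with a median of -0.66, and for GFP positive minus GFP negative they have a median of 0.02. Genes beyond 3 log2 units are not drawn.

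**Figure D2:**
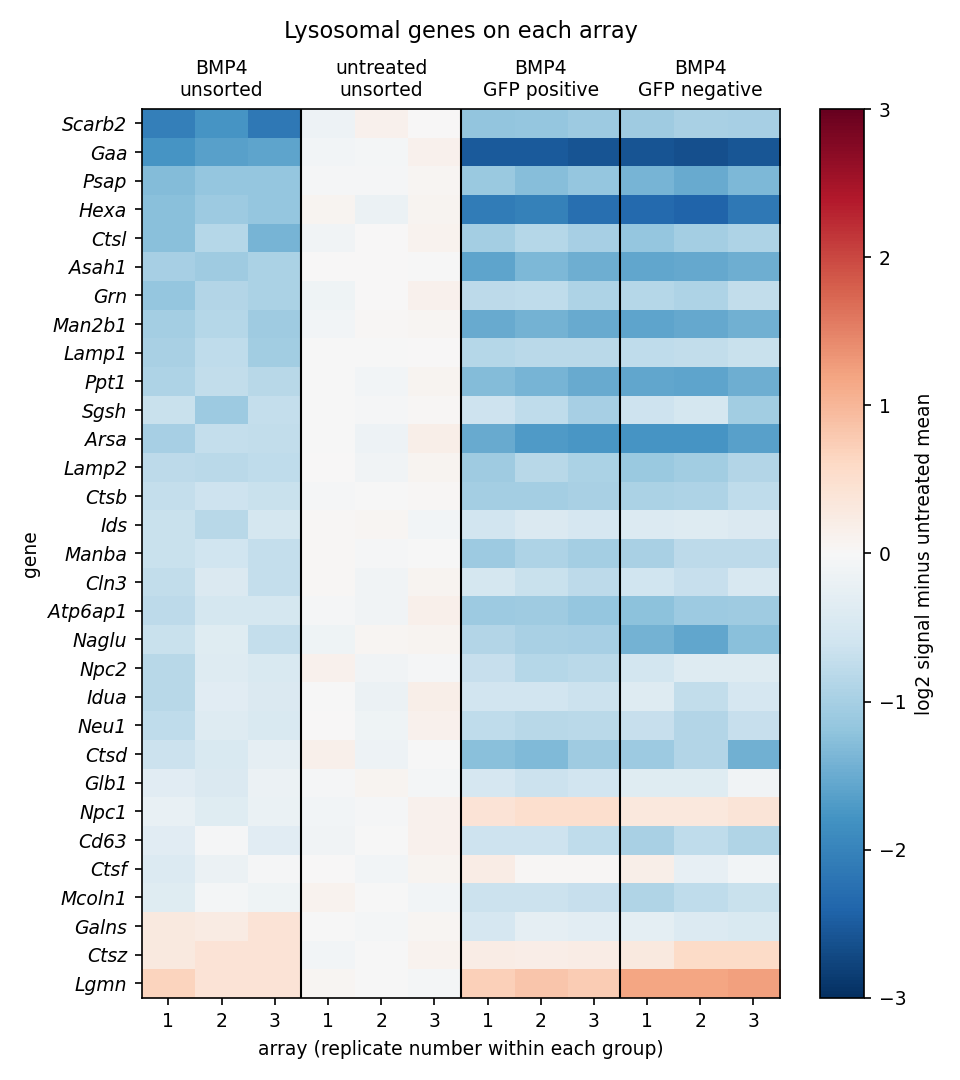
Log2 signal of the 31 tested lysosomal genes on each of 12 arrays, minus the mean of the untreated arrays of that gene, with genes ordered by the BMP4 difference. Blue is below and red above the untreated mean; most rows are blue in all 3 BMP4 groups, and Lgmn and Ctsz are red in them.

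The counts by role below stand beside the 28.7% of all genes that fell and the 30.2% that rose. Among the proteases, 6 of 11 listed were tested, of which 3 fell, 2 rose and 1 did not pass. So few genes do not set the proteases apart from all genes. Ctsl, which encodes the cysteine protease cathepsin L, measured 9.10, 9.49 and 8.95 after BMP4, against 10.24, 10.36 and 10.44 in untreated cells. The groups did not overlap, the BMP4 arrays spread more widely than the untreated ones, and the difference was -1.17 ± 0.12 (SE; limma adjusted p = 2.07e-06). Ctsb, for cathepsin B, measured 12.57, 12.67 and 12.62 after BMP4, against 13.26, 13.29 and 13.32 in untreated cells. All 3 BMP4 arrays were low and close to one another, with a difference of -0.67 ± 0.07 (adjusted p = 2.64e-06).

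Ctsd, for the aspartic protease cathepsin D, measured 6.58, 6.77 and 6.97 after BMP4, against 7.39, 7.08 and 7.22 in untreated cells. The arrays came close without overlapping, and the difference of -0.46 ± 0.14 passed the test (adjusted p = 0.0113) but not without BMP4 replicate 1 (adjusted p = 0.0520) or without untreated replicate 1 (0.0512). Lgmn, the asparaginyl endopeptidase legumain, went the other way, with 12.08, 11.81 and 11.81 after BMP4, against 11.46, 11.38 and 11.35 in untreated cells. Its BMP4 arrays were all above the untreated ones, and it rose by 0.50 ± 0.08 (adjusted p = 0.000133). Ctsz, for the carboxypeptidase cathepsin Z, measured 10.52, 10.63 and 10.62 after BMP4, against 10.14, 10.21 and 10.32 in untreated cells. It rose by 0.37 ± 0.09 (adjusted p = 0.00207), again with no overlap. Ctsf, for cathepsin F, had a difference of -0.20 ± 0.11 (adjusted p = 0.149) and overlapping arrays.

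Of the glycan-degrading enzymes, 11 of 13 were tested, and 10 fell while Galns rose, with a median difference of -0.66. Gaa, the acid alpha-glucosidase that degrades glycogen, measured 10.05, 10.18 and 10.22 after BMP4, against 11.74, 11.75 and 11.94 in untreated cells. Each BMP4 array was at least 1 unit below each untreated array, and the mean was 3.16-fold lower (-1.66 ± 0.08, adjusted p = 6.22e-10). Another Gaa probe, detected on 4 of 12 arrays, differed by 0.27 and did not pass, and with the mean of both probes the difference was -0.70. Hexa, the alpha subunit of beta-hexosaminidase, measured 8.10, 8.27 and 8.19 after BMP4, against 9.44, 9.19 and 9.44 in untreated cells. It fell 2.25-fold (-1.17 ± 0.10, adjusted p = 2.58e-07) with no overlap.

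Galns, the sulfatase that removes sulfate from keratan sulfate and chondroitin 6-sulfate, measured 7.36, 7.31 and 7.47 after BMP4, against 7.06, 7.00 and 7.13 in untreated cells. All BMP4 arrays were above the untreated ones, and both kept probes of this gene rose, by 0.32 ± 0.08 on the one used (adjusted p = 0.00469) and by 0.39 on the other. Man2b1, the lysosomal alpha-mannosidase, averaged 10.55 ± 0.11 after BMP4 and 11.53 ± 0.07 in untreated cells (SD, n = 3 each), a difference of -0.98. The differences of the other glycan enzymes that fell ran from -0.83 for Sgsh, the heparan sulfate sulfamidase, to -0.31 for Glb1, the beta-galactosidase. Sgsh was detected on 3 untreated arrays and on no BMP4 array, so it was at least 1.38-fold lower, with measured means of 5.21 after BMP4 and 6.04 in untreated cells. Between Sgsh and Glb1 lay Ids (-0.67), Manba (-0.66), Naglu (-0.58), Idua (-0.54) and Neu1 (-0.53), which act on heparan and dermatan sulfate, on mannosides and on sialic acids. The call of Ids rests on its brightest probe: with the mean of its kept probes its adjusted p was 0.181.

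All 7 tested genes listed under lipid handling fell, with a median of -0.83. Psap, the precursor of the saposins that present sphingolipids to their hydrolases, measured 11.86, 12.01 and 12.01 after BMP4, against 13.14, 13.13 and 13.22 in untreated cells. The arrays of each group were tight and more than 1 unit apart, a 2.30-fold lower level (-1.20 ± 0.08, adjusted p = 1.70e-08). Asah1, the acid ceramidase, measured 12.97, 12.91 and 13.03 after BMP4, against 13.98, 13.99 and 13.96 in untreated cells. It fell by 1.01 (SE 0.07, adjusted p = 6.35e-08), and another probe of it differed by -1.11.

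Grn, for progranulin, differed by -0.99 ± 0.10, Ppt1, the palmitoyl-protein thioesterase, by -0.83 ± 0.08, and Arsa, the arylsulfatase that acts on sulfatide, by -0.82 ± 0.10. The pair of cholesterol exporters moved less. Npc2, the soluble cholesterol carrier, averaged 10.09 ± 0.23 after BMP4 and 10.65 ± 0.12 in untreated cells (SD, n = 3 each), a difference of -0.57. Npc1, the membrane protein that takes cholesterol from it, measured 10.53, 10.38 and 10.54 after BMP4, against 10.67, 10.71 and 10.88 in untreated cells. The gap between the groups was small next to their spread, and the difference of -0.27 ± 0.08 passed with an adjusted p of 0.00845.

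Of 7 membrane genes, all tested, 5 fell and Cd63 and Mcoln1 did not pass. Scarb2, for LIMP2, the membrane receptor that carries glucocerebrosidase to the lysosome, measured 6.97, 7.26 and 6.88 after BMP4, against 8.87, 9.15 and 9.04 in untreated cells. Every BMP4 array was more than 1 unit below every untreated array, and at 3.96-fold lower (-1.98 ± 0.10, adjusted p = 1.62e-09) it was the largest fall of the 31. Lamp1 measured 12.38, 12.59 and 12.29 after BMP4, against 13.33, 13.34 and 13.36 in untreated cells. The untreated arrays were nearly equal and the BMP4 arrays all lower, with a difference of -0.92 ± 0.08 (adjusted p = 2.82e-07).

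Lamp2, which shares the role of Lamp1 and also acts in chaperone-mediated autophagy, measured 11.33, 11.29 and 11.35 after BMP4, against 12.13, 12.00 and 12.19 in untreated cells. The groups did not overlap, and all 4 kept probes fell, with differences between -0.79 and -0.61 (adjusted p = 3.96e-06 on the probe used). Cd63, a tetraspanin of late endosomes and lysosomes, measured 13.53, 13.84 and 13.53 after BMP4, against 13.75, 13.85 and 14.00 in untreated cells. BMP4 replicate 2 lay among the untreated arrays and the others below them, and the difference of -0.24 ± 0.10 missed the threshold (adjusted p = 0.0559), which it passed without BMP4 replicate 2 (0.00829) or without untreated replicate 1 (0.0388). It also passed in 5 of the other settings, with no background correction, an offset of 50, detection required on all 12 arrays, the mean of its kept probes or a replicate block (adjusted p 0.0150 to 0.0465). Mcoln1, the calcium channel TRPML1, measured 7.96, 8.27 and 8.20 after BMP4, against 8.42, 8.31 and 8.23 in untreated cells. Its groups overlapped (-0.18 ± 0.09, adjusted p = 0.112), and the 95% interval of its difference ran from -0.38 to 0.02. Cln3, the protein lost in juvenile Batten disease, and Atp6ap1, an accessory subunit of the proton pump, differed by -0.62 and -0.61.

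**Figure D3:**
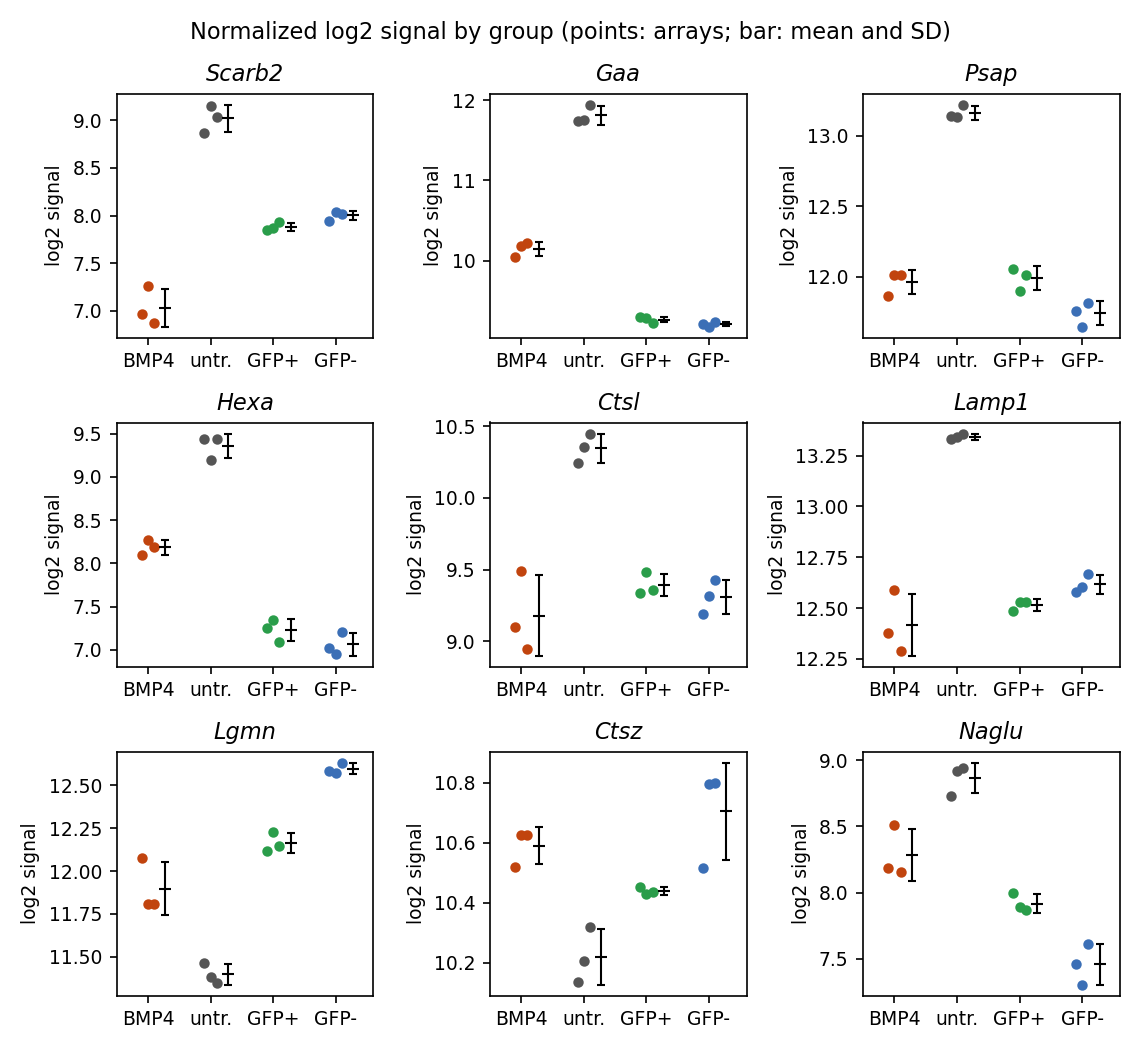
Normalized log2 signal of 9 lysosomal genes on every array, by group, with the mean and SD beside the points (n = 3 arrays a group). Scarb2, Gaa, Psap, Hexa, Ctsl and Lamp1 lie lower in all BMP4 groups than in untreated cells, Lgmn and Ctsz lie higher, and Naglu and Lgmn separate the GFP fractions. The vertical axes do not start at 0 and differ between panels.

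The 10 tested genes with more than 1 kept probe had 23 kept probes, of which 15 fell, 4 rose and 4 did not pass. No gene had probes that passed in both directions. By sign alone, the kept probes of Gaa (-1.66 and 0.27) and of Ids (-0.67 and 0.27) disagreed, and the positive probe of each did not pass. Shares of all kept probes are not given beside these counts. Ctsc, Ctsh, Ctso, Gusb, Arsb and Smpd1 were not detected on any array and were not tested. Tfeb, the transcription factor itself, appears under an older name, and its 2 probes were detected on at most 2 arrays, both untreated, so it has no value here. Ctsa and Tpp1 also appear only under older names and are not counted among the 31. Tpp1, a tripeptidyl peptidase, differed by -1.49 ± 0.13 between BMP4 and untreated cells, and Ctsa, the protective protein of the sialidase complex, by -0.57 ± 0.12. The older name of Lipa fits several genes of the annotation, and it was left out.

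Of the 12 tested genes with CACGTG in the window, 9 fell with BMP4, 1 rose and 2 did not pass, with a median of -0.60. Of the 15 with a window but no copy, 13 fell, 1 rose and 1 did not pass, with a median of -0.67.

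Other lysosome-related genes were listed by function apart from the 41, and not all of them are particular to the lysosome. Their shares stand beside the 28.7% of all genes that fell and the 30.2% that rose. Of 14 further hydrolases tested, 5 fell (35.7%, near the share of all genes) and 1 rose (7.14%), with a median of -0.23, among them Galc, the galactosylceramidase, which was undetected after BMP4 and at least 1.86-fold lower. Gm2a, the activator protein that presents GM2 ganglioside to hexosaminidase A, rose by 2.01 ± 0.10 (adjusted p = 1.18e-09), while Hexa, described above, fell. Of 17 further membrane genes, 11 fell (64.7%) and none rose, with a median of -0.44, among them Ctns, the cystine exporter (-1.15 ± 0.09), Ostm1, the partner of a chloride transporter (-1.09 ± 0.07), and Cd9, a tetraspanin (-0.89 ± 0.09). Of 16 V-ATPase genes, 9 fell (56.2%) and 2 rose (12.5%), with a median of -0.21. Atp6v0b (-0.78 ± 0.10), Atp6ap2 (-0.64 ± 0.07) and Atp6v0a2 (-0.59 ± 0.07) fell most, and Atp6v0a1 (0.30 ± 0.08) and Atp6v1f (0.19 ± 0.07) rose. The call of Atp6v1f was lost without BMP4 replicate 2 or 3 or untreated replicate 1 or 2 (adjusted p 0.0703 to 0.118).

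The machinery that delivers enzymes to the lysosome had no common direction, with 4 of 18 genes higher (22.2%), 3 lower (16.7%) and a median of 0.11. Gnptg, a subunit of the enzyme that adds the mannose 6-phosphate tag (-0.54 ± 0.09), Nagpa, which uncovers that tag (-0.47 ± 0.14, not called without BMP4 replicate 1, adjusted p = 0.0610), and Ap3d1, of the AP-3 coat (-0.39 ± 0.08), fell. The adaptor genes Ap1s1 (0.52 ± 0.11), Ap3b1 (0.28 ± 0.07) and Ap1g1 (0.27 ± 0.07) rose. Of 20 autophagy genes, 9 fell (45.0%) and 2 rose (10.0%), with a median of -0.12. The ATG8 family genes Gabarapl1 (-1.01 ± 0.09), Map1lc3b (-0.54 ± 0.08) and Gabarap (-0.52 ± 0.07) led the falls, while Map1lc3a (0.51 ± 0.10) and Vps18 (0.22 ± 0.08) rose. Of 13 genes around TFE factors and the kinase complex mTORC1, 4 fell (30.8%) and 3 rose (23.1%), both near the shares of all genes, with a median of -0.11. Flcn, for folliculin (-1.06 ± 0.08), Rragc, a Rag GTPase (-0.67 ± 0.07), and Tsc2 (-0.24 ± 0.09) fell. Rragb, another Rag GTPase (1.51 ± 0.11), Tsc1 (0.57 ± 0.08) and Lamtor2 (0.43 ± 0.09) rose. The calls of Tsc2 and Vps18 were each lost when any of 4 single arrays was left out, with adjusted p-values of 0.0644 to 0.118 for Tsc2 (BMP4 or untreated replicate 2 or 3) and 0.0553 to 0.114 for Vps18 (BMP4 replicate 2 or 3, untreated replicate 1 or 2). Of 2 cystatin genes tested, Cst3, an inhibitor of cysteine cathepsins, fell (-0.30 ± 0.08).

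**Figure D4:**
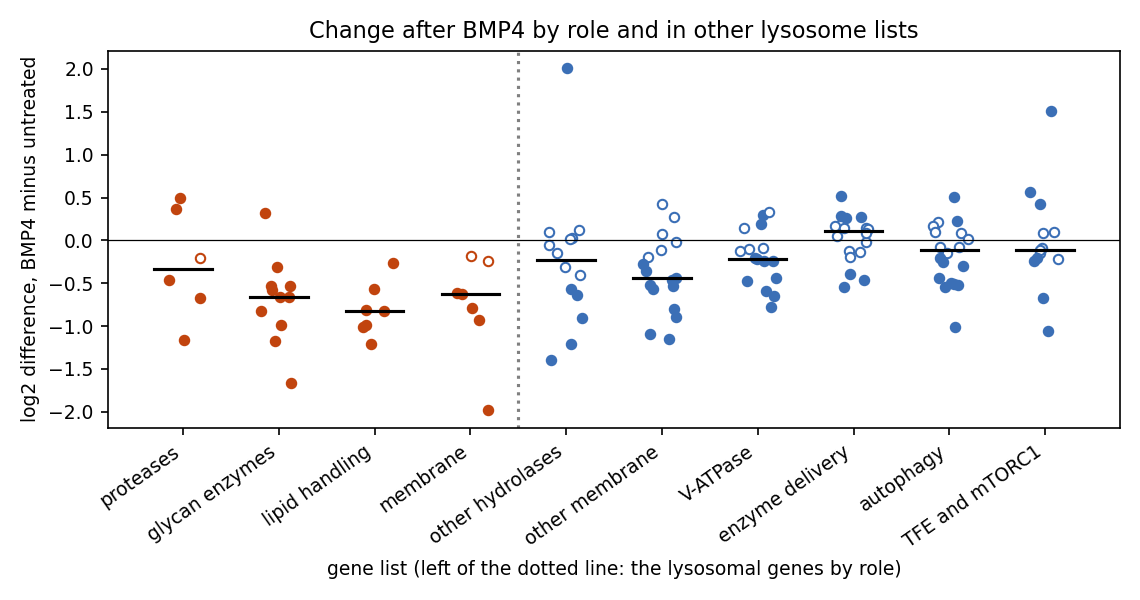
Log2 difference, BMP4 minus untreated, of each tested gene, for the 31 lysosomal genes by role (red, left of the dotted line) and for other lysosome-related lists (blue). Filled points passed the test, open points did not, and bars are medians; the enzyme delivery list is the one with a median above 0 (0.11).

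Markers of endoderm subtypes moved in the same comparison. Of 15 visceral endoderm markers, 14 rose with BMP4 and 1 fell, where 30.2% of all genes rose and 28.7% fell. Their summed linear signal was 18043 to 18966 after BMP4, against 7418 to 7676 in untreated cells. Hnf4a is in this list and also among the markers that define XEN cells above. Of 10 parietal endoderm markers, 9 fell and 1 rose, with sums of 58750 to 61918 after BMP4, against 127331 to 131156 in untreated cells. The part of this shift in the fall of the lysosomal genes was not tested.

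Between the GFP fractions, lysosomal genes were called at a share near that of all genes. In GFP positive relative to GFP negative cells 1 of 31 genes was called higher and 1 lower, together 6.45%, where 3.07% of all genes were higher and 2.32% lower, together 5.39%. Other kept probes of these genes, adjusted over all kept probes, passed where the brightest did not. Of the 4 kept Lamp2 probes, 2 were higher in GFP positive cells (0.33, adjusted p = 0.0388, and 0.42, adjusted p = 0.0166), and the other Ctsz probe was lower (-0.32, adjusted p = 0.0189). The median difference was 0.02, against -0.01 for all genes, and the 95% intervals of all 31 lay between -0.61 and 0.69. In 10 of 31 genes, or 32.3%, the arrays of the fractions did not overlap, against 27.4% of all genes.

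Naglu, the heparan sulfate glucosaminidase, measured 8.0, 7.89 and 7.87 in GFP positive cells, against 7.46, 7.30 and 7.61 in GFP negative cells. The fractions did not overlap, and it was 0.46 ± 0.11 higher in GFP positive cells (adjusted p = 0.0243), a call lost without GFP positive replicate 1 or 2 or GFP negative replicate 1 or 2 (adjusted p 0.0638 to 0.118). Lgmn measured 12.12, 12.23 and 12.15 in GFP positive cells, against 12.59, 12.57 and 12.63 in GFP negative cells. Its fractions were well apart and tight, with a difference of -0.43 ± 0.08 (adjusted p = 0.00647). The next in size, Npc2 (-0.34), Glb1 (-0.30), Ctsz (-0.27) and Psap (0.25), had fractions that did not overlap and adjusted p-values between 0.0829 and 0.0993, and Ctsz passed without GFP negative replicate 1 (0.0251). Scarb2 and Lamp1 differed by -0.12 and -0.10, with adjusted p-values of 0.570 and 0.537. In the other lists Gm2a was 0.56 ± 0.10 higher in GFP positive cells (adjusted p = 0.00418) and Wipi1, an autophagy gene, 0.42 higher. Gnptab, which encodes the catalytic subunits that Gnptg joins, and Atp6ap2 were lower, with differences of -0.37 and -0.28. Each of these last 3 calls was lost when one of several single arrays was left out: Wipi1 without GFP positive replicate 1 or 3 or GFP negative replicate 2, Gnptab without replicate 1 or 2 of either fraction, and Atp6ap2 without any single array but GFP positive replicate 2. The difference between the GFP effect and the BMP4 effect was called in 25 of 31 lysosomal genes, or 80.6%, against 47.9% of all genes. Its median was 0.58, beside -0.66 for the BMP4 effect, so it largely restates that effect with the sign changed. The call of Idua was lost in 10 of 20 alternatives, and Galns, not called, passed in 6 of 20.

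Each sorted fraction was also set against untreated cells, which are the same 3 arrays in every case. No untreated cells were sorted, so BMP4, sorting and the array set change together here and cannot be told apart. In GFP positive cells 27 of 31 genes were lower and 3 higher than in untreated cells, where 35.9% of all genes were lower and 37.7% higher. GFP negative cells likewise had 27 lower and 3 higher, where 36.2% of all genes were lower and 38.5% higher. The medians were -0.83 in GFP positive and -0.84 in GFP negative cells. Ctsf did not pass in either fraction, and Lgmn, Ctsz and Npc1 were higher in both. Ctsz was 0.22 ± 0.09 higher in GFP positive than in untreated cells (adjusted p = 0.0329). That call was lost without any array of the GFP positive group or without untreated replicate 1 or 2 (0.0614 to 0.115). Glb1 in GFP negative cells, at -0.28 ± 0.09 (adjusted p = 0.0146), was not called without untreated replicate 2 or GFP negative replicate 1 or 2 (0.0590 to 0.0605). Gaa measured 9.30, 9.29 and 9.23 in GFP positive cells and 9.22, 9.18 and 9.24 in GFP negative cells, below its untreated mean of 11.81 by 5.81-fold and 6.05-fold. With the mean of its kept probes these differences, -2.54 and -2.60 on the log2 scale, were -0.91 and -1.02. Hexa measured 7.25, 7.34 and 7.10 in GFP positive cells and 7.03, 6.96 and 7.21 in GFP negative cells, which was 4.37-fold and 4.90-fold below untreated. Both genes had tight fractions far below every unsorted array. Tpp1 differed from untreated by -3.10 and -3.15.

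Sorted fractions and unsorted BMP4 cells differed too, and here sorting and the array set move together. With the mean of the fractions set against unsorted BMP4 cells, 16 of 31 genes were lower and 4 higher, where 35.4% of all genes were lower and 34.8% higher. Hexa (-1.04 ± 0.08), Gaa (-0.91 ± 0.07, and -0.26 with the mean of its kept probes) and Arsa (-0.86 ± 0.09) were lower in sorted cells. So were Ctsd (-0.72 ± 0.12, with sorted arrays near the lowest detected signal) and Galns (-0.69 ± 0.07). Galns, higher after BMP4 in unsorted cells, thus lay below its untreated mean of 7.06 in both fractions, at 6.70 ± 0.14 in GFP positive and 6.68 ± 0.08 in GFP negative cells (SD, n = 3 each). Mcoln1 and Cd63, which did not pass in unsorted cells, averaged 7.66 and 13.21 in GFP positive and 7.55 and 13.00 in GFP negative cells, against 8.32 and 13.87 in untreated cells.

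Scarb2 measured 7.84, 7.87 and 7.93 in GFP positive cells and 7.95, 8.04 and 8.02 in GFP negative cells, all above the unsorted BMP4 arrays and below the untreated ones. It was 0.90 ± 0.09 higher in sorted than in unsorted BMP4 cells (adjusted p = 6.61e-07). Npc1 measured 11.17, 11.25 and 11.26 in GFP positive cells and 11.07, 11.07 and 11.14 in GFP negative cells. Every sorted array was above every unsorted one, 0.67 ± 0.07 above unsorted BMP4 cells, so its direction relative to untreated cells was down in unsorted and up in sorted cells. Lgmn (0.48 ± 0.07) and Ids (0.21 ± 0.07) were also higher in sorted cells, Ids not without BMP4 replicate 2 (adjusted p = 0.122). Lamp2 (-0.19 ± 0.07, adjusted p = 0.0321) and Neu1 (-0.24 ± 0.09, adjusted p = 0.0281) were lower in sorted cells, and their calls were lost when one of 6 and one of 3 single arrays were left out. Without BMP4 replicate 2, Ctsl, Grn and Lamp1 were called higher in sorted cells. The unsorted BMP4 mean lay between those of the fractions in 5 of 31 genes, above both in 17 and below both in 9. The untreated mean was the highest of the 4 groups in 26 of 31 genes and the lowest in 2, Lgmn and Ctsz. Shares of all genes are not given for these orders of means, so the counts cannot be read as particular to lysosomal genes.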

How the data were processed

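RNA of 12 samples (4 groups of 3) was hybridized as biotin cRNA to arrays of the type Illumina MouseWG-6 V2.0. Mean bead intensity for 45281 probes comes from a deposited scanner export of BeadStudio 3.4.0, not normalized per the file headers. Beside each intensity the deposited export gives a fraction, which is the detection p taken from 1. The authors also deposited log2 values made with lumi, per the submitters' processing notes, by a method not stated there. Their probe identifiers could not be tied to the scanner rows, so those values were not used for the lysosomal genes.

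Using limma 3.58.1 (R 4.3.3), intensities were corrected for background from the detection p, offset by 16, quantile normalized and log2 transformed. A probe was kept if 3 or more arrays gave it a detection p under 0.01, which left 15448. Symbols were updated with a RefSeq table of GRCm38.p6 (22864 rows equal, 11917 by synonym, 10500 as given), and each gene was read from its brightest kept probe. Listed lysosomal genes were matched by the file's own name. A linear model of 4 group means was fitted in limma with moderated errors (8 residual and 5.08 prior degrees of freedom, median residual SD 0.116). Where a group had no array that detected a gene, the fold is a lower bound, taken against the higher of its value and the lowest detected signal on each array. The sorted comparison is the mean of both fractions minus unsorted BMP4 cells.

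The genes, lists, tests and alternatives were chosen with earlier results of these data known. Per-array values are given for the 6 largest rises and falls among called genes with no overlap between arrays, and for 10 genes set by name. From other lists, up to 3 called genes a direction are named, and further names were chosen after their values were seen. Deviations of same-numbered arrays from their group means correlated at -0.05, -0.04 and -0.01 between BMP4 and untreated. Between the fractions these correlations were 0.15, 0.13 and -0.01. Arrays of unlike number correlated at -0.07 to 0.10 between BMP4 and untreated, and at -0.20 to 0.08 between the fractions. The values do not settle whether the fractions are paired. The numbers were not taken as pairs, and a replicate block was run as an alternative. Arrays of 1 group correlated at 0.994 to 0.997 across genes, which are not independent replicates, and no arrays were identical. The number of arrays limits the precision. Settings varied were the background correction, its offset (50), scale in place of quantile normalization, the detection filter, probe averaging, a replicate block, array weights, which groups entered the fit, a minimum change and each single array left out.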

Additional observations from a re-analysis of the deposited data

How the results depend on the processing

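With BMP4 against untreated cells, 24 to 26 of the 31 lysosomal genes were lower and 3 higher when single arrays were left out, and the counts stayed within 1.5 times under every other alternative but a minimum change of 1 log2 unit, which left 6 lower and 0 higher. That minimum gave 0 higher and 12 lower in GFP positive against untreated cells, and 1 and 13 in GFP negative against untreated. It gave 0 and 1 in sorted against unsorted, 0 and 0 between the fractions, and 9 and 0 for the difference of the GFP and BMP4 effects. Shares of all genes at this minimum are not given for these comparisons, so the counts cannot be read against them. The 5th percentile of all genes was -1.08 in BMP4, -1.43 in GFP positive and -1.46 in GFP negative cells, each against untreated. Between the fractions, the count higher in GFP positive cells, 1, became 2 with an offset of 50, 0 with scale normalization, 0 with no detection filter and 2 with array weights. The count lower there, 1, became 3 with an offset of 50, 2 with the mean of the kept probes, 2 with only the compared groups and 4 with array weights. Leaving out single arrays gave 0 to 1 higher and 1 to 2 lower. The cause of these shifts was not tested. Naglu lost its call between the fractions with scale normalization (adjusted p = 0.0802) and no filter (0.0629). With a replicate block 26 lysosomal genes were lower after BMP4, Cd63 now among them (adjusted p = 0.0465), and between the fractions 1 was higher and 1 lower. The mean of the kept probes turned the sign of Ids in GFP positive against untreated cells (0.0072) and of Manba in sorted against unsorted cells (0.014), neither called there. Scale normalization moved the median of all genes to -0.14 in GFP positive against untreated cells, -0.10 in GFP negative against untreated and -0.14 in sorted against unsorted cells. The calls over all genes then split into 2925 higher and 4461 lower, 3214 and 4212, and 2657 and 4451, against 3999 and 3807, 4076 and 3836, and 3685 and 3747 with quantile normalization. Between the fractions, 139 genes were higher and 148 lower with scale normalization and 489 and 429 with array weights, against 325 and 246. The alternative with the authors' processed table was not run for the lysosomal genes. Signal near background limits Sgsh, the genes not tested and Ctsd in the sorted fractions. On GFP negative replicate 3 Ctsd measured 5.80, where the lowest detected signal was 5.71. Gla, counted among the further hydrolases that fell, was undetected after BMP4 and at least 1.04-fold lower.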

Other observations

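Of 9 pluripotent cell markers, 5 were detected on no array and 3 were tested. Klf2, undetected after BMP4, was at least 1.44-fold lower there than in untreated cells, and Dppa5a differed by -0.49 ± 0.16 (SE, limma adjusted p = 0.0166). Zfp42, detected on all 12 arrays, differed by 0.29 ± 0.14 between BMP4 and untreated cells (adjusted p = 0.0904), and it was 0.43 ± 0.14 higher in GFP positive than in untreated cells (adjusted p = 0.0118). Of 9 trophoblast markers, 5 were detected on no array and 3 were tested, and all 3 changed with BMP4. Cdx2 and Plac1, both undetected in untreated cells, were at least 5.06-fold and 2.80-fold higher after BMP4, and Gata3, undetected after BMP4, was at least 4.38-fold lower. Cdx2 averaged 7.82 in unsorted BMP4 cells and 4.55 in untreated cells, and it was undetected in both sorted fractions, at 5.02 in GFP positive and 5.04 in GFP negative cells.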
